A study of Drosophila melanogaster with 2 samples.

Results

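Epithelial cells are held together by junctions and are divided into apical and basolateral sides by a small set of conserved protein complexes. The 9 genes described here encode core parts of that machinery, and they were taken by name out of 13968 protein-coding genes on the chromosome arms. They are shg (E-cadherin), cno (Canoe, the fly afadin) and pyd (Polychaetoid, the fly ZO-1) of the adherens junction, baz (Bazooka, the fly Par-3), crb (Crumbs) and its partner sdt (Stardust) of the apical domain, and scrib, dlg1 (discs large) and l(2)gl (lethal giant larvae) of the basolateral Scribble module. The set was chosen by gene name with the IDR ranks and signal values of these same libraries already known, so its values are a description and none was tested.

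Binding of Sry-beta, a zinc finger protein of the serendipity gene cluster, was mapped by ChIP-seq in whole Drosophila melanogaster embryos aged 0 to 12 h, of mixed sex, from a transgenic line that carries GFP at the C-terminal end of Sry-beta. There was 1 group with 2 biological replicates, numbered 2 and 4, and no second condition. A description field in the labels names each library as an input control. The assay title and the Sry-β antibody in the same labels belong to a ChIP, as do the peak lists, and the libraries were read as ChIP. Whole embryos mix epithelia with every other tissue, so binding in few cells and weak binding in many cannot be told apart. The peak lists hold no read counts, so the depth of each library is unknown, and the spread is that between 2 libraries.

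The authors deposited a relaxed list of 30000 peaks for each replicate and for the pooled reads, and an irreproducible discovery rate (IDR) list of 3257 peaks. All 3257 IDR peaks were the 3257 highest peaks of the pooled list, with the same coordinates and signal values, so membership of the IDR list is a rank threshold on the pooled signal. The signal value is the authors' own and its scale is not stated; it was used to rank peaks within a list. The lowest IDR signal was 169 and the next pooled peak had the same value to 3 digits. A promoter summit is one within 500 bp of an annotated transcription start site (TSS) of the gene. An intronic summit lies inside the gene, outside its exons and farther than 500 bp from each of its TSSs. Positions relative to a TSS are negative upstream of it.

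The 3 highest peaks at the 9 genes lay upstream of the first TSS of pyd, upstream of an internal TSS of sdt and in the first intron of cno. Their sequences are shown because these were the only peaks of the set above the median IDR signal of 292. They were read from the release 6 genome (dm6) on the strand of the gene, 5′ to 3′. The pyd window is chr3R:8931897-8932196 on the minus strand, the 300 bp before the TSS. The sdt window is chrX:8192900-8193199 on the plus strand, also the 300 bp before the TSS. The cno window is chr3R:5215385-5215684 on the minus strand, 300 bp centred on the summit. Capitals mark matches, on either strand, to any of 5 short words. These were AGAGATG (the core common to in vitro sites of Sry-beta and Sry-delta), TATCGATA (the DNA replication-related element), GGTCACAC (part of core promoter Motif 1), TAGCTA (a palindrome noticed in an earlier analysis of these same peaks) and GAGAG (the GAGA element). None of the 5 words is contained in another.
pyd: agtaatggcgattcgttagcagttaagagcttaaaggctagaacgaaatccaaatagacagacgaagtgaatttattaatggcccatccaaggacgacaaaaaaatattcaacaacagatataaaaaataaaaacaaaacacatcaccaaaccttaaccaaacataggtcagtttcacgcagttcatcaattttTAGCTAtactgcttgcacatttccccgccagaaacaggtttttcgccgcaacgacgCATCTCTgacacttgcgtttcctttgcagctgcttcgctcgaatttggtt
sdt: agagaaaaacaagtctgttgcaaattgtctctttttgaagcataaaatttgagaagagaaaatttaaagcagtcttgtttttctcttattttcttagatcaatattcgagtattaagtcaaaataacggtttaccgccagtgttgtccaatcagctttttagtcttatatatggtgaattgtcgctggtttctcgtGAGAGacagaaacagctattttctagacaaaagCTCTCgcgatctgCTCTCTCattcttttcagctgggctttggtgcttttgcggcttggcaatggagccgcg
cno: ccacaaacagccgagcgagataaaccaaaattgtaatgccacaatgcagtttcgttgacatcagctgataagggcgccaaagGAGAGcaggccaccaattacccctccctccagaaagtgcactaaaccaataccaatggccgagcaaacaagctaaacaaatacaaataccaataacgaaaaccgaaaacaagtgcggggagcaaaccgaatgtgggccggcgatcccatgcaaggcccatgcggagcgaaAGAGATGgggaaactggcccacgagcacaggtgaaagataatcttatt

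In the pyd window AGAGATG was found on the opposite strand with its first base at -50, and TAGCTA at -106, which is 60 bp past the summit. AGAGATG occurred in 8.75% of 300 bp windows at all IDR summits and in 4.15% of the 300 bp upstream of 19276 protein-coding TSSs. TAGCTA occurred in 15.8% and 7.33% of the same windows. A TATCGATA lay farther from the pyd TSS, at -341, in a wider window of 491 bp on the summit, where 10.4% of all IDR summits had one. The cno window held AGAGATG with its first base 102 bp past the summit, and 1 GAGAG. The sdt window held 4 GAGAG, the nearest to the summit 14 bp past it, a word found in 32.8% of 300 bp IDR windows and 32.5% of upstream windows. GGTCACAC was in none of the 3 windows, against 4.70% of IDR windows and 4.41% of upstream windows. A match is a description of these letters and not evidence of a bound site.

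Within 50 bp of the summit the words were scarcer. Of the 11 IDR summits, 10 had 101 bp windows free of untranslated sequence. Among these, the higher sdt summit held 1 GAGAG and a summit in the first intron of cno held 5 overlapping ones, with first bases from 17 to 25 bp past it. GAGAG was in 9.33% of the 101 bp windows at all IDR summits. The other 4 words were in none of the 10 windows, with shares at all IDR summits of 3.19% for AGAGATG, 3.32% for TATCGATA, 1.97% for GGTCACAC and 7.95% for TAGCTA. In the wider windows of 491 bp GAGAG was at 9 of the 11 IDR summits of the 9 genes, against 47.1% of all IDR summits. TAGCTA was at 3 of the 11, at pyd, scrib and cno, against 19.9%. AGAGATG was at 2 of the 11, against 12.3%, TATCGATA at 1, against 10.4%, and GGTCACAC at 0, against 6.97%. The GC content of the 101 bp at the pyd promoter summit was 32.7%, against a median of 35.6% at all IDR summits.

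Sry-beta summits of the IDR list were at the promoters of 2 of the 9 genes, pyd and sdt, and at 11 places in all across 5 of the genes. The share of all protein-coding genes with an IDR promoter summit was 18.0%. Intronic IDR summits were in 3 of the 9, pyd, scrib and cno, and the only IDR summit of baz was in a 5′ UTR exon. No IDR summit was found at dlg1, l(2)gl, crb or shg, counted from 500 bp before the first TSS to the end of the gene. Of the 11 summits, 3 were promoter summits and 7 were intronic. The loci differ in length, from 7.54 kb at shg to 104.8 kb at pyd, and longer genes have more room for summits. Per 100 kb the loci of the 9 genes held 2.74 IDR summits and the 6 arms with peaks 2.44.

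**Figure D1:**
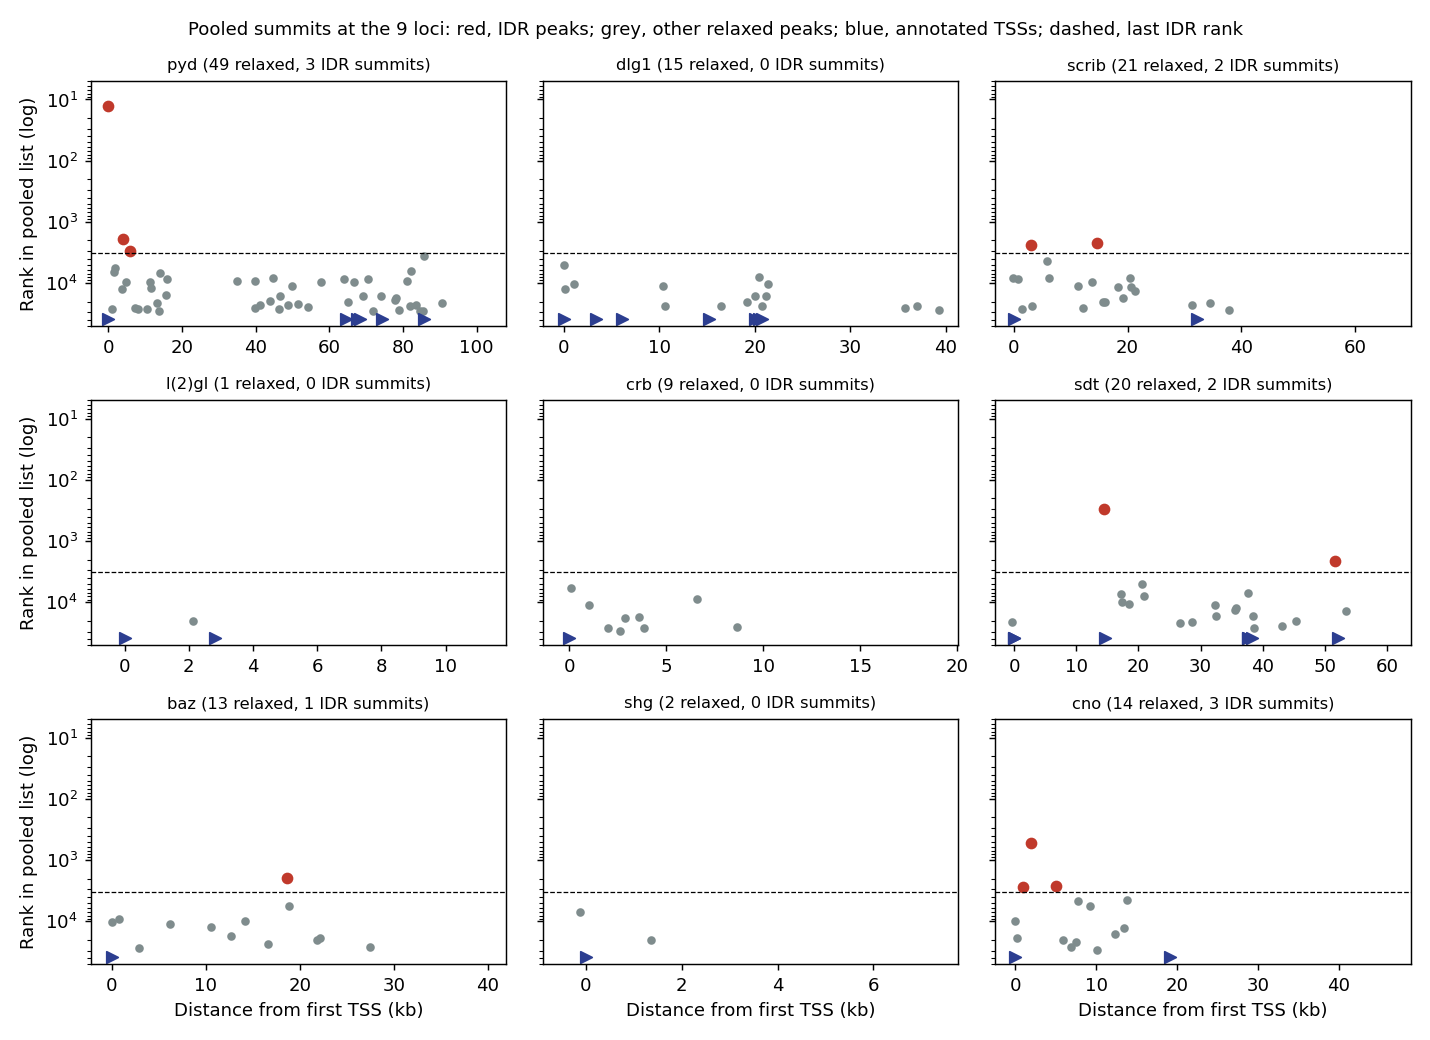
Rank in the pooled relaxed list (log axis, highest rank at the top) of every summit at the 9 loci against its distance from the first TSS of the gene in kb. Red points are the 11 IDR summits, grey points the other relaxed summits, blue triangles the annotated TSSs and the dashed line rank 3257; pyd, sdt and cno hold the 3 highest points, and dlg1, l(2)gl, crb and shg have no red point.

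pyd encodes a scaffold protein with PDZ domains that links adherens junctions to actin. The gene (FBgn0262614) lies on the minus strand of chr3R:8827068-8931896. It carried the highest peak of the set, on chr3R:8931614-8932537, 924 bp wide. Its signal was 8818 in the pooled list, 2259 in replicate 2 and 6664 in replicate 4. The peak ranked 13 in the IDR and pooled lists, 31 in replicate 2 and 9 in replicate 4, so both libraries had it among their highest peaks. The pooled summit was at -166 from the first TSS of pyd, and the replicate summits were at -107 and -171. By its highest promoter signal pyd was number 18 of the 2518 genes with an IDR promoter summit. In the single relaxed lists it was number 47 of 7626 genes in replicate 2 and number 12 of 7038 in replicate 4. The nearest TSS of another gene was that of osk, which organises germ plasm, 3064 bp from the summit; osk was named after its value was seen. Among the 11 IDR summits of the set the smallest distance to a TSS of another gene was 3063 bp, at cno, while 46.3% of the 1988 IDR promoter summits had TSSs of more than 1 protein-coding gene within 500 bp.

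pyd has 6 distinct TSSs for 12 annotated transcripts, and the peak lay at the first, which starts 1 transcript. The last TSS, 85607 bp downstream, starts 6 transcripts and had the second highest promoter summit of the gene. That summit, 26 bp past the TSS, ranked 3627 in the pooled list with a signal of 156, outside the IDR list. It ranked 3553 in replicate 2 and 3353 in replicate 4, so it was just outside the 3257 highest of each library. At the fifth TSS the highest summits of the lists were at different positions. The pooled summit was at -311 and ranked 16014, and the replicate 4 summit was at -205 and ranked 7721. The replicate 2 summit, of rank 13116, lay on the other side, 228 bp past the TSS. The second TSS had a summit in replicate 4 alone, of rank 7722, the fourth in replicate 2 alone, of rank 17395, and the third had none. The internal TSSs of pyd thus ranked far below the first one in every list.

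The first intron of the longest pyd transcript, 49376 bp, held both intronic IDR summits of the gene. The nearer was 3969 bp from the TSS, on chr3R:8927682-8928171, with ranks of 1908 in the IDR list, 2766 in replicate 2 and 1912 in replicate 4. The other was 5796 bp from the TSS, on chr3R:8925855-8926344, with ranks of 3005, 3623 and 3177. Their pooled signals were 256 and 180.0, both below the median of the IDR list. The signals of the nearer were 79.4 in replicate 2 and 171 in replicate 4, and those of the other 66.6 and 113. In all, the pooled list had 49 summits across pyd, replicate 2 had 44 and replicate 4 had 52.

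**Figure D2:**
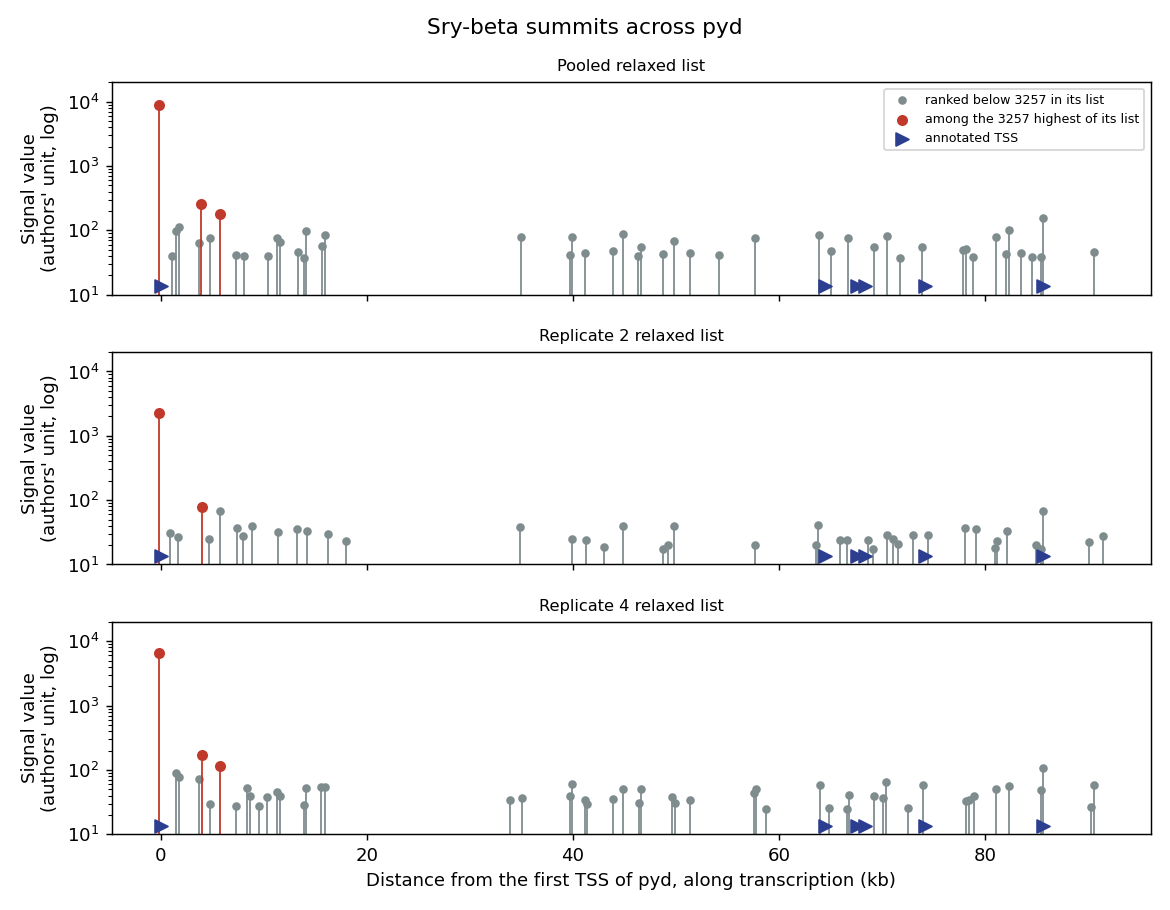
Signal value (authors' unit, log axis) of every summit across pyd against its distance from the first TSS in kb, in the pooled, replicate 2 and replicate 4 relaxed lists from top to bottom. Red points are among the 3257 highest of their list and blue triangles are annotated TSSs; the summit at the first TSS, with signals of 8818, 2259 and 6664, stands above all others in each list.

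By the rank in each replicate, the IDR promoter peaks most like that of pyd were those of Snr1, CG13894 and CG10274, out of 1707 IDR promoter peaks with a summit of both replicates within 100 bp. Likeness was the distance between log10 ranks in the 2 libraries. Snr1, which encodes a subunit of the Brahma remodelling complex, ranked 29 in replicate 2 and 8 in replicate 4, at a distance of 0.0588. CG13894 ranked 53 and 12, at a distance of 0.264, and CG10274 ranked 18 and 6, at 0.295. Only 2 libraries enter this measure.

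cno encodes Canoe, which couples the cadherin complex to actin. The gene (FBgn0259212) lies on the minus strand of chr3R:5170004-5217456. Its IDR summits were all in the first intron, which is first in 7 of its 8 transcripts and about 13503 bp long. The highest was 1922 bp from the TSS, on chr3R:5215365-5215688, with a pooled signal of 1031. Its signals were 549 in replicate 2 and 472 in replicate 4, at ranks 351 and 701, and it ranked 521 in the IDR list. This was the highest of the 7 intronic IDR summits of the set, the others having signals up to 256. The second, 5017 bp from the TSS on chr3R:5212194-5212683, ranked 2631 in the IDR list, 4078 in replicate 2 and 2095 in replicate 4. The third, 991 bp from the TSS on chr3R:5216220-5216709, ranked 2733 in the IDR list. That summit ranked 1451 in replicate 2 and 8013 in replicate 4, so it was well up in replicate 2 only. At the first TSS itself the pooled summit, at 39 bp, ranked 9982 and the replicate 2 summit, at 14 bp, ranked 4659. The highest replicate 4 summit there was farther in, at 222 bp, and ranked 20387. The second TSS had no summit.

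shg encodes E-cadherin, the adhesion receptor of the adherens junction, and the gene (FBgn0003391) lies on the minus strand of chr2R:21049654-21057197. Its single TSS had a pooled summit at -134 with rank 7024 and a signal of 96.0. The replicate 2 summit, 33 bp past the TSS, ranked 5805, and the replicate 4 summit, at -68, ranked 7214. Both libraries thus placed their summits at this TSS well below the IDR list. An IDR peak lay past the other end of the gene, with its summit 185 bp beyond the gene end on chr2R:21049224-21049713. It ranked 2143 in the IDR list, 2025 in replicate 2 and 2399 in replicate 4, with summits within 2 bp of the pooled one. The nearest other TSS, that of cpa, was 8318 bp away from that summit, and cpa was named after its value was seen.

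sdt encodes Stardust, a membrane-associated guanylate kinase that binds the Crumbs tail. The gene (FBgn0261873) lies on the plus strand of chrX:8178549-8240474. It has 7 distinct TSSs for 14 transcripts, and its IDR summits were at internal TSSs only. The higher was at -118 from the third TSS, which starts 3 transcripts and lies 14651 bp inside the gene, on chrX:8192787-8193338. Its signal was 2185 in the pooled list, 1026 in replicate 2 and 1153 in replicate 4, at ranks of 297, 188 and 375. The 3 summits were within 1 bp of each other. For 6 other transcripts this place is intronic, in an intron of 12011 bp. The lower IDR summit was at -458 from the last TSS, which starts 2 transcripts, on chrX:8229911-8230400. It ranked 2104 in the IDR list, 1674 in replicate 2 and 2922 in replicate 4, and it lies near the edge of the promoter window. The first 2 TSSs, which are 4 bp apart and start 6 transcripts between them, shared a pooled summit of rank 20741 and a replicate 4 summit of rank 9296, and had none in replicate 2. Of all IDR promoter summits, 12.1% reached internal TSSs only.

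crb encodes the transmembrane protein that sets the apical domain, and the gene (FBgn0259685) lies on the plus strand of chr3R:24295078-24314541. All 4 of its transcripts start at 1 TSS, where the pooled summit, 69 bp past the TSS, ranked 5908. The highest replicate summits there lay upstream, at -82 with rank 9147 in replicate 2 and at -67 with rank 4949 in replicate 4. The signals were 109 in the pooled list, 35.5 in replicate 2 and 81.4 in replicate 4. The next highest pooled summit at crb was 6562 bp downstream, in an intron, and ranked 8818. In replicate 2 the order was turned. The summit at 6562 bp ranked 4440 and another intronic one at 3523 bp ranked 7345, both above the promoter summit of rank 9147. In replicate 4 the nearest summit to that place, at 6580 bp, ranked 13643.

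baz encodes Bazooka, which helps to place the adherens junction and recruits the Par complex, and the gene (FBgn0000163) lies on the plus strand of chrX:17160006-17200728. Its IDR summit was 18664 bp from its only TSS, on chrX:17178425-17178914, with a signal of 250 in the pooled list, 79.6 in replicate 2 and 169 in replicate 4. In 2 of the 4 transcripts this place is a 5′ UTR exon and in the other two it is the first intron, of 27800 bp. The ranks were 1986 in the IDR list, 2749 in replicate 2 and 1944 in replicate 4. At the TSS the pooled summit ranked 10090, with a replicate 2 summit of rank 4697 and none within 500 bp in replicate 4. A replicate 4 summit just outside that window, 526 bp past the TSS, ranked 10448.

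scrib, dlg1 and l(2)gl encode the proteins of the basolateral Scribble module, which are also needed at septate junctions. The scrib gene (FBgn0263289) lies on the plus strand of chr3R:26536350-26604051. It had IDR summits in introns 2 and 3 of 17 of its 18 transcripts. The first was 2991 bp from the TSS, on chr3R:26539096-26539585, with ranks of 2383 in the IDR list, 2153 in replicate 2 and 2916 in replicate 4. The other was 14708 bp from the TSS, on chr3R:26550813-26551302, with rank 2209 in the IDR list. It ranked 13473 in replicate 2, where the nearest summit was 68 bp away and had a signal of 27.8, and 1600 in replicate 4, with a signal of 201. Only replicate 4 had this peak among its 3257 highest. The first TSS of scrib showed the reverse, with rank 2464 in replicate 2, 12545 in replicate 4 and 8309 in the pooled list.

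dlg1 (FBgn0001624), on the plus strand of chrX:11369665-11409776, has 7 distinct TSSs for 21 transcripts. At the first, which starts 7 of them, the pooled summit was at -23 and ranked 5010, with ranks of 17079 in replicate 2 and 3187 in replicate 4. The last 3 TSSs, which lie close together, shared a summit of rank 7894 in the pooled list, 7016 in replicate 2 and 11786 in replicate 4. The replicates thus ranked the 2 start regions of dlg1 in opposite order. l(2)gl (FBgn0002121), on the minus strand of chr2L:9839-21376, had no promoter summit in any of the 4 lists, and it was alone among the 9 genes in that. Its 1 pooled summit was intronic, 2126 bp from the first TSS and at -680 from the second, and ranked 20291. With a window of 1000 bp, or with the peak interval in place of the summit, that peak counted as a promoter peak and 9 of the 9 genes had one in the pooled list. Across the gene replicate 2 had 2 summits and replicate 4 had 0.

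**Figure D3:**
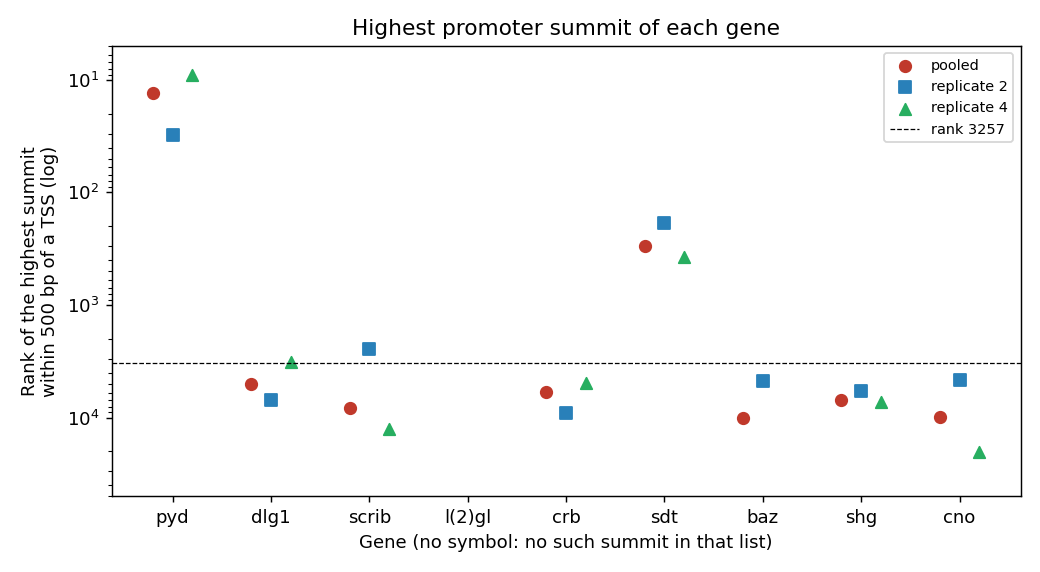
Rank (log axis, highest rank at the top) of the highest summit within 500 bp of any TSS of each gene in the pooled, replicate 2 and replicate 4 relaxed lists; a missing symbol means no such summit and the dashed line is rank 3257. pyd (13, 31 and 9) and sdt (297, 188 and 375) lie above the line in all 3 lists, scrib in replicate 2 only (2464) and dlg1 in replicate 4 only (3187).

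Weak summits were present at most of the promoters. Of the 9 genes, 8 had a pooled relaxed summit within 500 bp of a TSS, a list in which 53.1% of all protein-coding genes had one. All 8 had it at the first TSS, while 1 of the 9 genes, pyd, had an IDR summit there. In the single libraries, 8 of the 9 genes had a promoter summit in replicate 2, with 54.6% of all genes, and 7 had one in replicate 4, with 50.4% of all genes. Among the 29 distinct TSSs of the set, 19 had a pooled relaxed summit and 3 an IDR summit. Close TSSs of dlg1 and of sdt shared a pooled summit. The share over all 19276 distinct protein-coding TSSs was not computed. Taken alone, the 3257 highest peaks of replicate 2 gave promoter summits at 3 of the 9 genes (pyd, sdt and scrib), with 18.5% of all genes. Those of replicate 4 gave 3 (pyd, sdt and dlg1), with 17.4% of all genes. The pooled list held 144 summits at the 9 loci, 106 of them intronic, 22 at promoters, 9 in coding exons and 7 in UTR exons. The shares of these classes among all pooled summits were not computed. Per 100 kb the loci held 35.9 pooled summits, 34.6 of replicate 2 and 35.6 of replicate 4. The 6 arms with peaks held 22.4 in each list, and the difference was not tested. Both replicates had a summit within 100 bp of 34.7% of the 144, against 32.8% of all pooled summits.

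Intronic IDR summits were more frequent among long genes. They were in 3 of the 9 genes and in 4.23% of all protein-coding genes. In the pooled relaxed list, which holds weaker summits, 9 of the 9 genes had an intronic summit, with 19.0% of all genes. In replicate 2 this was 7 of the 9, with 19.7% of all genes, and in replicate 4 it was 7 of the 9, with 18.5% of all genes. Shares among genes of similar length were not computed for these relaxed lists. Whether gene length accounts for these counts was not tested. Intronic summits of the IDR list were in 20.0% of the genes at least as long as shg, the shortest of the set. Among genes of 40 kb or more, a length chosen after the values were seen, 3 of 6 members and 33.3% of 468 genes had an intronic IDR summit. Of the 7 intronic summits, 5 were in the first intron of a transcript of the gene. That share was not computed for all intronic IDR summits. The median signal of the 7 was 213, against 259 for 800 IDR summits in introns of protein-coding genes and outside promoters. The 3 promoter summits had signals of 8818, 2185 and 237, against a median of 310.0 for all IDR promoter summits.

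All 11 IDR summits of the set had a summit of both replicates within 100 bp, against 86.7% of all IDR peaks. Both were within 50 bp at 7 of the 11, a distance for which the share of all IDR peaks was not computed. Of the 11, 7 ranked within the 3257 highest of both libraries, against 58.5% of all IDR peaks, a share near that background. Ranks differed between replicates by 5 times or more at 2 of the 11, the scrib summit at 14708 bp and the cno summit at 991 bp, and at 5.31% of the 2825 IDR peaks with both.

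**Figure D4:**
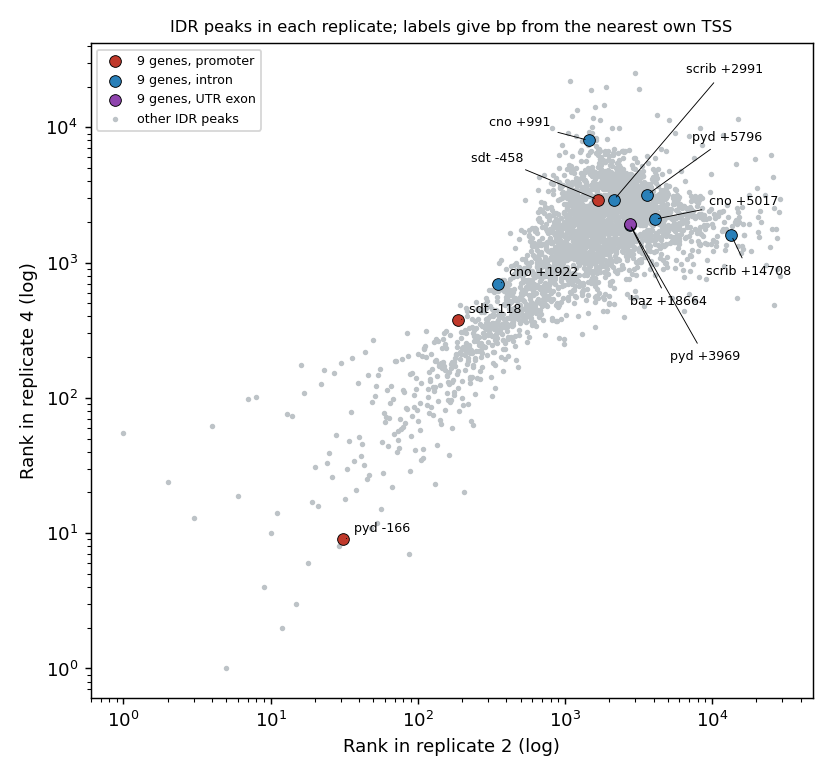
Rank in replicate 2 against rank in replicate 4 (both log axes) of the 11 IDR summits at the 9 genes, coloured by class and labelled with the distance in bp from the nearest TSS of the gene, over all other IDR peaks with a summit of both replicates within 100 bp. The pyd promoter summit (31 and 9) is near the lower left corner, and the scrib summit at 14708 bp (13473 and 1600) and the cno summit at 991 bp (1451 and 8013) are off the diagonal.

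The rest of the junction and polarity machinery was described with a list of 55 genes, the 9 included, which was written with earlier results of these libraries known. An IDR promoter summit was at 18 of the 55 (32.7%), and at 16 of the 46 genes outside the set (34.8%), against 18.0% of all protein-coding genes. A relaxed pooled promoter summit was at 48 of the 55, against 53.1%. By group the count was 2 of 9 for the adherens junction, 1 of 4 for the Crumbs complex, 1 of 8 for the Par complex and polarity kinases and 0 of 3 for the Scribble module. It was 9 of 25 for septate junction genes and 5 of 6 for cortical and FERM proteins. The list was not tested, because it was chosen with the peaks in view. Besides l(2)gl, 3 genes of the list had no promoter summit in any list, sinu, mesh and Ssk, named after their values were seen.

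Among septate junction genes the highest promoter peak was that of cold, a small membrane-anchored protein of that junction, on chr2L:573951-574828. It ranked 22 in the IDR list, 38 in replicate 2 and 21 in replicate 4, with a signal of 7925, and Ipk2 has a TSS within 500 bp of the same summit. The bou peak, on chrX:6985606-6986617, ranked 303 and shared its window with ogre. It ranked 246 in replicate 4, and replicate 2 had no summit within 100 bp of it. The highest replicate 2 summit within 500 bp of a bou TSS was at -121 and ranked 531, with a signal of 330. bou encodes a related septate junction protein. vari, which encodes a septate junction scaffold, had a peak of rank 622 that lay near CG9328 too. Vinc (vinculin) was the only adherens junction gene outside the set with an IDR promoter summit, at rank 1509, with ranks of 2724 in replicate 2 and 1491 in replicate 4. par-6, whose product binds Bazooka and atypical protein kinase C, had one at rank 1937, in a window with a TSS of CG8188.

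The cortical and FERM genes differed most between libraries among the 6 groups. All 6 had a promoter summit among the 3257 highest peaks of replicate 2, beside 18.5% of all protein-coding genes. Of the 6, 1 had one among those of replicate 4, beside 17.4% of all genes. That gene was beta-Spec, with a replicate 4 summit of rank 325. Its IDR peak ranked 402 with a signal of 1510 and lay in a window with a TSS of IntS2. No replicate 4 summit was within 100 bp of that IDR summit. Moe (moesin) ranked 1407 in replicate 2 and 3527 in replicate 4, and kst (the heavy beta spectrin) ranked 1761 and 4276, so the replicate 4 summits were present and lower. Septate junction genes gave 5 of 25 in replicate 2 and 8 of 25 in replicate 4, beside the same shares of all genes.

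**Figure D5:**
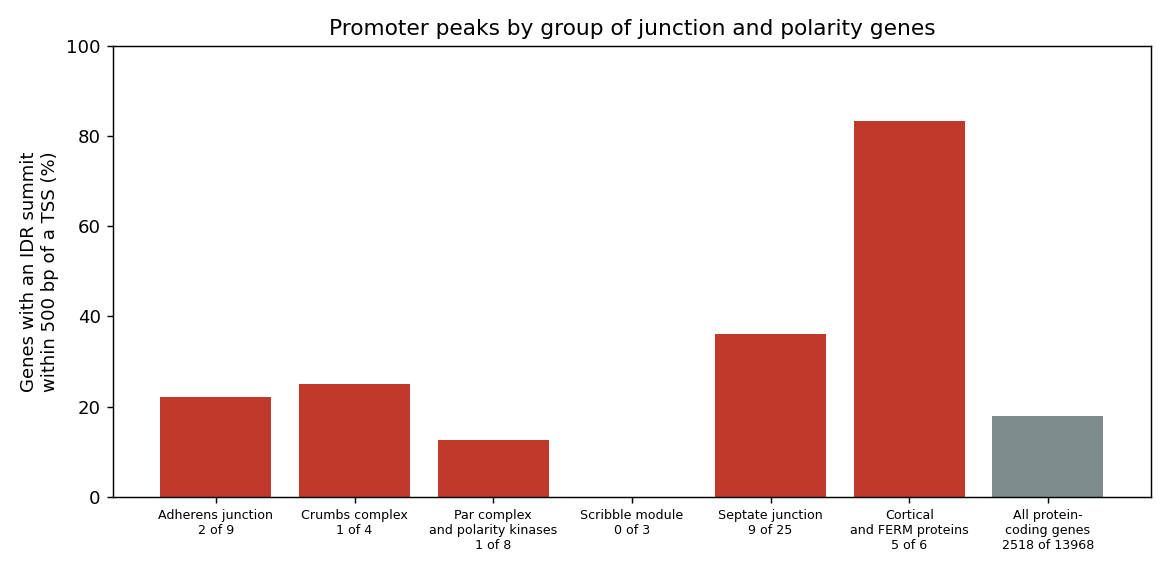
Share of genes (%) whose promoter window, 500 bp on either side of a TSS, holds an IDR summit, in 6 groups of junction and polarity genes (red bars) and among all protein-coding genes (grey bar), with counts under each bar. The groups hold 3 to 25 genes, and their bars run between 0 and 83.3%, beside 18.0% for all genes.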

How the data were processed

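Peak lists in narrowPeak format on dm6 were deposited by the authors. Per the deposited readme files, every relaxed list was made against 1 common control alignment, from a single library or from both pooled, and the 3 relaxed lists gave the IDR list. No source used here names the aligner, the peak caller or the IDR threshold. The signal value of each peak was used as deposited by the authors, to rank peaks within a list. The commonest width was 490 bp in 52.6% of IDR and 94.6% of pooled peaks, 380 bp in 95.8% of replicate 2 peaks and 584 bp in 95.0% of replicate 4 peaks, and widths were compared between no peaks. A summit beyond its peak was set to the last base of that peak, which affected 2 IDR peaks and 1 to 3 in every relaxed list.

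Summits were assigned with Python 3.11.15, numpy 2.4.6 and pandas 2.3.3 to genes of Ensembl BDGP6 release 115, whose coordinates are those of dm6, with all distinct transcript starts. Sequence came from the RefSeq release 6 assembly. Assignment was tested on simulated summits. Replicate ranks at an IDR summit are those of the nearest replicate summit within 100 bp. No test was run, since there is 1 group and the members and lists were chosen with earlier results of these data known. The wider list matched in full, 55 of 55, with aka found under the name bark. Named outside the 9 genes were, by rule, up to 3 genes per group with the highest IDR promoter signal, protein-coding genes with a TSS within 500 bp of a member's IDR promoter summit (there were 0) and the 3 promoter peaks with ranks nearest to those of pyd. Alternatives covered the promoter window, first starts only, peak interval in place of summit, a higher signal threshold, each replicate alone and the pooled list.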

Additional observations from a re-analysis of the deposited data

How the results depend on the processing

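No paired analysis was possible because there is 1 group and no comparison between groups. With only the first start of each gene, 1 of the 9 genes had an IDR promoter peak in place of 2, because the sdt summits are at internal starts. With IDR peaks at or above the median signal, 1 gene had an intronic peak in place of 3, 3 summits lay at the 9 loci in place of 11, and 9 genes of the wider list had a promoter peak in place of 18. Within 50 bp, 7 of the 11 summits had both replicates nearby, with no share of all IDR peaks computed at that distance. The share of all genes with an IDR promoter peak, 18.0%, was 15.0% with 250 bp, 20.1% with 1000 bp, 16.6% with first starts, 10.3% above the median signal and 19.2% by interval. Leaving out a replicate, it was 17.4% to 18.5%, the members with a promoter peak were 3 in both cases (scrib joining in replicate 2 and dlg1 in replicate 4), those with an intronic peak 3, the summits at the loci 9 to 11 and the wider list 15 to 17. The 3257 highest pooled peaks gave the same counts as the IDR list, being the same peaks. The remaining counts stayed within 1.5 times the value reported. Depth is unknown, so whether the relaxed summits at dlg1, crb and shg differ from background was not tested.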

Other observations

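Long stretches of the loci held no relaxed summit, counted between the first TSS, the summits and the gene end. The longest in the pooled list was in cno, 33606 bp to the gene end, and was 19508 bp in replicate 2 and 18770 bp in replicate 4. In scrib the longest was 29786 bp in the pooled list, 34828 bp in replicate 2 and 32561 bp in replicate 4. In pyd it was 19075 bp in the pooled list, 16929 bp in replicate 2 and 17990 bp in replicate 4, in each list inside the first intron. Each relaxed list holds 30000 peaks, and the mappability of these stretches was not tested.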
